A study of Mus musculus with 42 samples.

Results

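Retinol saturase (Retsat) and 8 other genes of vitamin A (retinoid) metabolism were examined in lung, liver and forestomach of mice given benzo(k)fluoranthene (BkF). BkF is a polycyclic aromatic compound that activates the aryl hydrocarbon receptor (AhR). The 9 genes, Retsat, Lrat, Rbp4, Rdh11, Dhrs3, Aldh1a1, Aldh1a7, Cyp26a1 and Rarb, were picked by symbol from the 20018 genes with a named probe on the array. Retsat was chosen because its values were lower in dosed liver, so its liver values are given here as a description with no test. The other 8 genes were chosen for their place in the pathway, with earlier results of these data known.

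Adult male Muta™Mouse (a transgenic mouse strain built for mutation assays), aged about 11 weeks, received BkF in olive oil by daily oral gavage for 28 days. The groups were the vehicle control (D0, olive oil only, 0 mg/kg-bw/day) and BkF at 25 (D1), 50 (D2) and 100 (D3) mg/kg-bw/day, and tissues were collected 72 hours after the last dose. From D0 to D3 there were 4, 3, 4 and 4 lungs, 4, 2, 3 and 4 livers, and 4, 3, 4 and 3 forestomachs, on 42 two-colour arrays from 15 mice. Each value is a log2 ratio of the tissue sample (red) over a reference RNA from mouse cell lines (green) that was the same on all arrays, so a value of 0 means the level of that reference and levels of different genes cannot be compared. RNA came from tissue pieces, in which fewer cells of a type and less RNA per cell cannot be told apart.

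Vitamin A circulates as retinol and is stored in liver as retinyl esters, mainly in hepatic stellate cells. Retinol is oxidised reversibly to retinal and then irreversibly to retinoic acid, which acts through nuclear receptors and is cleared by enzymes of the CYP26 family that retinoic acid itself induces. Ligands of the AhR are known to lower the retinoid stores of liver. Lrat esterifies retinol, Rbp4 carries retinol in blood, Rdh11 and Dhrs3 reduce retinal to retinol, Aldh1a1 oxidises retinal to retinoic acid, and Aldh1a7 is a close relative of Aldh1a1. Cyp26a1 degrades retinoic acid, Rarb is a retinoic acid receptor, and Retsat saturates a double bond of retinol.

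The promoters of 3 genes are shown because Retsat is the gene by which the group was chosen, and because Cyp26a1 and Rarb are the members that hold the letters of a retinoic acid response element. The sequences are the 250 bases before the transcription start in RefSeq (GRCm38.p6), read 5′ to 3′ on the gene's strand, with motif letters in capitals. The AhR core motif, GCGTG, was searched on both strands, and the DR5 retinoic acid response element, a direct repeat of the receptor half-site, was searched by its consensus on both strands.
Retsat, chr6:72598352-72598601, + strand: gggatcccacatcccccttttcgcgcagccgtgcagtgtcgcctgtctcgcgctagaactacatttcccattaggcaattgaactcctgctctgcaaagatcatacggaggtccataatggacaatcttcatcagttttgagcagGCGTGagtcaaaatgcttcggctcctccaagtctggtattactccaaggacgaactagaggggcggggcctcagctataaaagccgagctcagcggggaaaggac
Cyp26a1, chr19:37697558-37697807, + strand: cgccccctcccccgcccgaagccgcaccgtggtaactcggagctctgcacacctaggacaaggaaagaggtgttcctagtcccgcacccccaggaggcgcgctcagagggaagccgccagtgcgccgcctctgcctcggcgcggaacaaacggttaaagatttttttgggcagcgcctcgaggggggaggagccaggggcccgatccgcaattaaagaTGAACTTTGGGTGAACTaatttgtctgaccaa
Rarb, chr14:16575477-16575726, - strand: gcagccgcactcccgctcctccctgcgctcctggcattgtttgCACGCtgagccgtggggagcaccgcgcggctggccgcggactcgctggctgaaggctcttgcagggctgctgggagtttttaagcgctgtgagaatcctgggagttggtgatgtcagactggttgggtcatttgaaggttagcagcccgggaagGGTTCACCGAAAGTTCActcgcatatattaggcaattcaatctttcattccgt
In Retsat the capitals mark 1 GCGTG, 105 to 101 bases before the start. In Cyp26a1 they mark a DR5 element on the opposite strand, 32 to 16 bases before the start. In Rarb they mark GCGTG on the opposite strand, 207 to 203 bases before the start, and a DR5 element 53 to 37 bases before it, which do not overlap. Of the 9 genes, 5 had GCGTG in the window before at least 1 of their starts (Retsat, Lrat, Rbp4, Rdh11 and Rarb), as did 30.9% of 27025 genes with a promoter in the table. The 9 genes have 14 such windows, and a gene with more windows can match more easily. Counted by window, 28.2% of all 32851 windows held GCGTG. The DR5 letters were found in 2 of the 9 genes, Cyp26a1 and Rarb, and in 0.104% of all these genes. The genes were chosen for their place in the retinoid pathway and the motif is a retinoic acid element, so this is no test of enrichment. Such a match describes the letters of the window and is not evidence of binding.

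The labelled tissues carried their defining markers. All 6 hepatocyte markers were well above background in every liver, all 6 lung epithelium markers in every lung, and 6 or 7 of 7 squamous epithelium markers in every forestomach. Single arrays also carried markers of other tissues. The lung of D2 mouse 12 showed skeletal muscle markers (a mean of 4.96, against at most -0.20 in the other lungs) and squamous markers. Glandular stomach markers were at 4.0 in the lung of D1 mouse 7 and at 1.19 in that of D1 mouse 8, against at most 0.72 in the other lungs. White fat markers were at 2.76 to 3.94 in the lungs of mice 7, 12, 15 and 20 (0.67 to 2.22 in the other lungs), and at 4.72 and 3.11 in the forestomachs of D3 mouse 16 and D0 mouse 4 (at most 1.9 in the others). The livers of D3 mice 17 and 20 showed white fat markers as well (3.03 and 1.90, against at most 0.77 in the other livers). The liver of mouse 17 also showed skeletal muscle markers (4.14). In forestomach, 9 of 14 arrays showed glandular stomach markers at 5.10 to 6.24, whereas the other 5 arrays lay at 0.54 to 1.7. Cyp1a1, the classical AhR target, changed by 6.81 (lung), 5.26 (liver) and 3.24 (forestomach) on the log2 scale from D0 to D3. In each tissue every D3 mouse lay above every D0 mouse for Cyp1a1, although limma called only the lung change.

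In the vehicle mice the 9 genes differed widely between the tissues. Retsat was highest in liver, at 3.42 ± 0.19 (SD, n = 4), followed by forestomach at 1.104 ± 0.48 and lung at -0.16 ± 0.20. The order is a description for liver, and the difference between lung and forestomach was tested: Retsat was lower in lung by a log2 difference of -1.26 (SE 0.30, limma adjusted p = 0.000699). Of the vehicle forestomachs, those of mice 2 and 3 had glandular stomach markers at 5.92 and 5.93, and those of mice 1 and 4 at 0.54 and 0.84. Over all 14 forestomachs these markers gave r = 0.75 (rho = 0.65) with Retsat and 0.73 (rho = 0.81) with Rbp4, as a description. Their part in the vehicle levels was not tested. A gene was called in limma where its Benjamini-Hochberg adjusted p was no more than 0.05 and its change reached 1.5-fold. Counts between tissues leave out genes for which some group compared had no array well above background, and leave out Retsat where liver is compared. Of 7 genes, 5 differed between lung and liver (40.2% of all probes were called), and of 6 genes, 5 differed between liver and forestomach (33% of all probes). Between lung and forestomach 6 of 7 genes differed (29.9% of all probes). Lrat in forestomach and Cyp26a1 in lung and forestomach had only a bound. The liver arrays were hybridised on slides of their own and read with another software version, so the tissue and the slide set cannot be told apart for liver, whereas lung and forestomach shared slides.

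Rbp4, the blood carrier made by hepatocytes, had the widest range among those of the 9 genes that were above background in each tissue. It stood at 8.20 ± 0.11 in liver, 2.44 ± 0.31 in lung and 0.71 ± 0.66 in forestomach (each SD, n = 4). Lrat, the storage enzyme, was higher in lung (3.77 ± 0.62) than in liver (1.33 ± 0.26) by 2.45 on the log2 scale (SE 0.47, limma adjusted p = 2.86e-05). It was not well above background on any of the 14 forestomach arrays, so that vehicle lung was at least 6.55-fold and vehicle liver at least 1.92-fold above forestomach. Cyp26a1 was well above background in all 13 livers, in 1 of 15 lungs (D2 mouse 12) and in none of 14 forestomachs. Its level in vehicle liver was at least 4.11-fold above that in vehicle lung and at least 3.71-fold above that in vehicle forestomach.

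The enzymes that act on retinal were mostly highest in liver. Rdh11 stood at 1.46 ± 0.36 in liver, 0.22 ± 0.43 in forestomach and -0.68 ± 0.19 in lung, and each step of this order passed the test in limma (adjusted p = 1.84e-06 for liver against forestomach and 0.000247 for lung against forestomach). Dhrs3 stood at 2.69 ± 0.11 in liver, 1.88 ± 0.12 in lung and 1.05 ± 0.32 in forestomach, again with each step called. Aldh1a1 stood at 6.86 ± 0.23 in liver and 6.39 ± 0.17 in lung, a difference that missed the threshold (limma adjusted p = 0.137), and both lay above forestomach (4.21 ± 0.26). Aldh1a7 was highest in liver (7.22 ± 0.08), while lung (5.23 ± 0.26) and forestomach (5.34 ± 0.25) did not differ beyond their spread. Aldh1a1 and Aldh1a7 are closely related genes, and cross-hybridisation between their probes was not tested. Rarb stood at 1.35 ± 0.32 in lung, 0.79 ± 0.18 in liver and 0.44 ± 0.27 in forestomach, and only lung against forestomach was called (limma adjusted p = 0.0082), a call that the dimmer of its probes did not give.

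**Figure D1:**
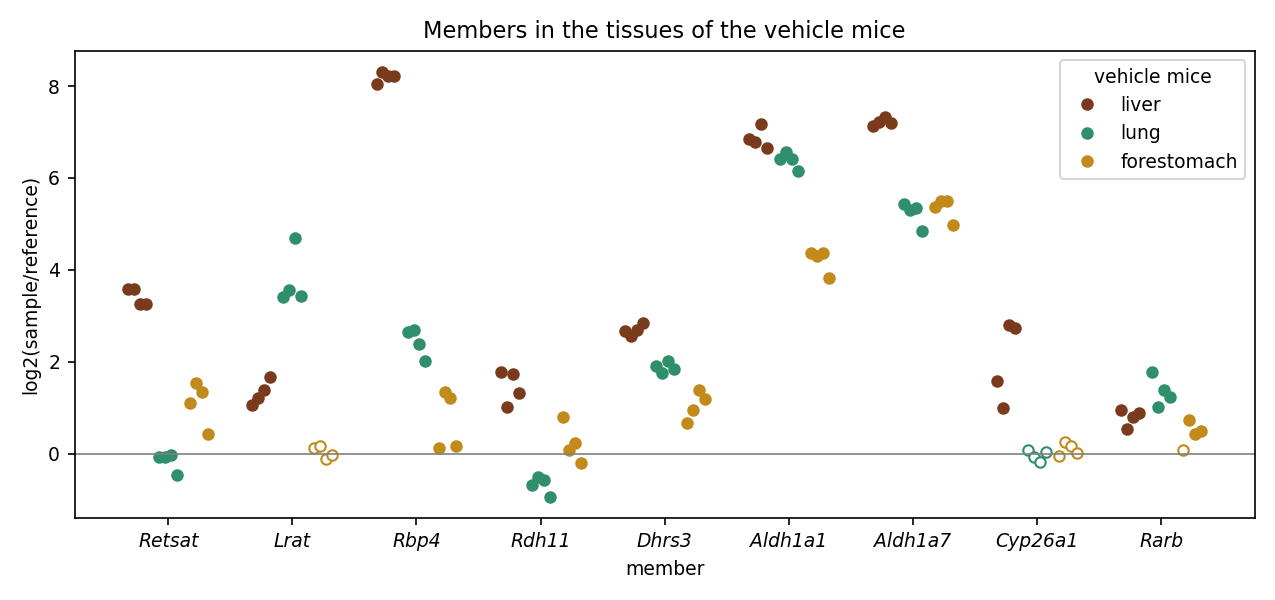
Log2 ratio of sample over reference (vertical axis) of each of the 9 genes in the 4 vehicle mice, 1 point per mouse, coloured by tissue; open points were not well above background. The mean of the liver points is highest for Retsat, Rbp4, Rdh11, Dhrs3, Aldh1a1, Aldh1a7 and Cyp26a1, and that of the lung points for Lrat and Rarb.

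Retsat was lower in every dosed liver than in every vehicle liver, the separation by which it was chosen. Of all 30460 liver probes, 5.2% separated in this way at D1, 4.76% at D2 and 3.04% at D3 (another 2.95% lay wholly above at D3). The vehicle livers of mice 1, 2, 3 and 4 read 3.59, 3.59, 3.26 and 3.25. The D1 livers of mice 8 and 9 read 2.95 and 2.90, the D2 livers of mice 11, 12 and 13 read 2.53, 2.49 and 2.795, and the D3 livers of mice 16, 17, 19 and 20 read 2.33, 2.54, 2.62 and 2.49. The groups D0 and D3 thus did not overlap, and the lowest vehicle liver stood above the highest dosed liver.

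Relative to the vehicle mean, Retsat in liver changed by -0.49 (D1), -0.81 (D2) and -0.92 (D3) on the log2 scale, the last being 1.90-fold lower. Centred on the spike-in control probes in place of all probes, the differences were -0.25, -0.045 and -0.25, a centring that moved the median of all genes by 0.24, 0.77 and 0.67. Within the slide of vehicle mice 1 and 2 the differences were -0.64, -1.08 and -1.15, and within the slide of vehicle mice 3 and 4 they were -0.35, -0.46 and -0.70, so the direction was the same on both slides. The log2 ratios of the 10 spike-in control probes also moved with dose in liver, with changes of -0.29 to -0.20 at D1, -0.88 to -0.58 at D2 and -0.73 to -0.52 at D3. The median over all 30460 probes tested was -0.005 at D3. Position on the slide followed dose on nearly all arrays, so array position and dose cannot be told apart, and the part of the spike-in shift in the Retsat values was not tested. Without the 2 livers that carried fat markers the D3 difference was -0.95. The mean of the 6 hepatocyte markers ranged from 7.85 to 8.19 in vehicle livers and from 7.43 to 7.93 in D3 livers. As a description over the same 13 arrays, it moved with Retsat at r = 0.74 and rho = 0.68, and its part in the Retsat values was not tested.

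**Figure D2:**
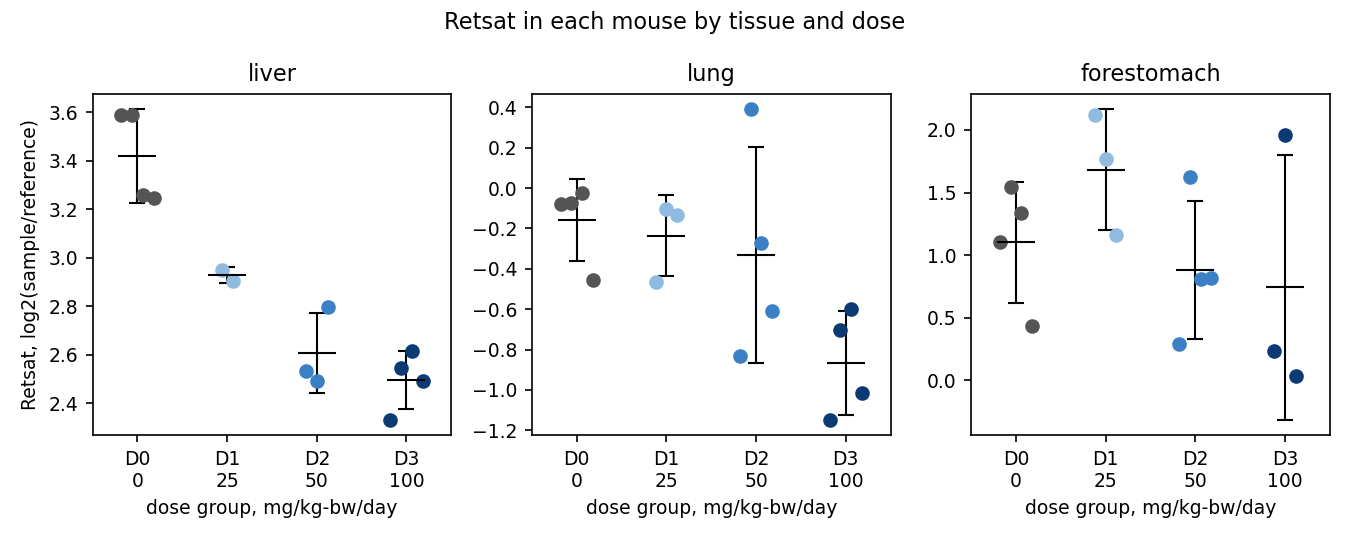
Retsat as log2 ratio of sample over reference (vertical axes, with a range of their own for each tissue) by dose group (horizontal axes, dose in mg/kg-bw/day), 1 point per mouse, with bars for the mean and SD. In liver all dosed mice lie below all vehicle mice. In lung all 4 D3 mice do, with 1 of 3 D1 mice and 2 of 4 D2 mice, and in forestomach the groups overlap.

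None of the other 8 genes was called in liver, and at D3 each overlapped the vehicle livers. The shares of all probes called in liver were 0% at D1, 0.0427% at D2, 0.0525% at D3 and 0% for the linear trend with dose, so a pass by any gene was rare. At an unadjusted p below 0.05 in limma, 0 of the 8 genes were found at D1 (1.54% of all probes), 1 at D2 (Aldh1a1; 10.7% of all probes), 2 at D3 (Rbp4 and Aldh1a7; 7.8% of all probes) and 2 in the trend (the same 2 genes; 8.61% of all probes). Such a p was thus common among the probes of liver and sets no member apart. Centred on the spike-in probes, which moved the median of all genes upward as given above, 5 of the 8 genes were called at D2 and 3 at D3. With that centring 79.8% and 67.5% of all probes were called at these doses. The genes called at D3 were Rdh11 (0.99), Rarb (0.72) and Lrat (0.68).

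Among the genes of transport and storage, Rbp4 read 8.05, 8.31, 8.23 and 8.22 in the vehicle livers and 7.61, 7.73, 8.19 and 7.84 in the D3 livers. In 3 of 4 D3 livers it lay below all vehicle livers, and the change was -0.36 (SE 0.14, limma adjusted p = 0.565). Centred on the spike-in probes, that change was 0.31, and the changes of Aldh1a1, Aldh1a7 and Dhrs3 were likewise positive. Rbp4 moved with the hepatocyte markers at r = 0.71 and rho = 0.55 over the 13 livers, given as a description, and the part of these markers in its change was not tested. Lrat read 1.05, 1.20, 1.39 and 1.66 in vehicle livers and 1.26, 1.99, 1.20 and 0.90 in D3 livers. Its groups overlapped at each dose.

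Among the enzymes of retinal, Aldh1a1 read 6.84, 6.78, 7.18 and 6.65 in vehicle livers, 6.26, 5.14 and 6.81 in D2 livers, and 6.17, 6.21, 6.36 and 6.69 in D3 livers. It lay below all vehicle livers in 2 of 3 D2 mice and in 3 of 4 D3 mice, with changes of -0.79 (SE 0.30, limma adjusted p = 0.379) and -0.51 (SE 0.28, limma adjusted p = 0.689). Mouse 12, at 5.14, decided much of the D2 value: without it the change was -0.33. Aldh1a7 read 7.14, 7.21, 7.32 and 7.19 in vehicle livers, and in the D3 livers it split into 6.61 and 6.76 (mice 16 and 17) and 7.16 and 7.21 (mice 19 and 20). Mice 16 and 17 shared a slide and had hepatocyte markers at 7.46 and 7.43, while mice 19 and 20 shared the other slide, with markers at 7.78 and 7.93. Over the 13 livers these markers gave r = 0.68 and rho = 0.42 with Aldh1a7, as a description, and the part of the markers and of the slide was not tested. Dhrs3, a retinal reductase, changed by -0.19 and Rdh11 by 0.32 from D0 to D3, with limma adjusted p of 0.79 and 0.739. With 1 array left out, the change of Rdh11 ranged from 0.167 to 0.42. Both D1 livers read higher for Rdh11 (1.89 and 2.02) than every vehicle liver (1.01 to 1.78), as did those of 6.13% of all probes, but at D2 and D3 the groups overlapped.

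Cyp26a1, the retinoic acid hydroxylase, varied more between livers of 1 group than between groups. Vehicle livers read 1.58, 0.98, 2.798 and 2.74, D1 livers 3.26 and 2.09, D2 livers 2.41, 4.72 and 1.88, and D3 livers 3.06, 4.42, 1.79 and 1.01. The highest values were those of D2 mouse 12 and D3 mouse 17, and the D3 change was 0.55 (SE 0.75, limma adjusted p = 0.908). Without mouse 17 it was -0.07. Rarb, the retinoic acid receptor, was also highest in these 2 livers, at 2.15 (mouse 12) and 1.40 (mouse 17) against 0.47 to 1.12 in the other 11. Its second probe changed in the same direction at each dose as the brighter probe used here. Lrat was highest in the same 2 livers, at 2.11 and 1.99. Hepatocyte markers were low in both, at 7.54 (mouse 12) and 7.43 (mouse 17) against 7.85 to 8.19 in vehicle livers. They were as low in D3 mouse 16 (7.46), where Lrat (1.26), Rarb (0.80) and Cyp26a1 (3.06) lay below the values of mice 12 and 17. As a description over the 13 livers, these markers gave r = -0.68 (rho = -0.56) with Cyp26a1, -0.52 (rho = -0.49) with Lrat and -0.51 (rho = -0.12) with Rarb, and their part in the values was not tested. The mean of the hepatic stellate cell markers was 0.84 in mouse 12 and 1.31 in mouse 17, against 0.84 to 1 in vehicle livers. It gave r = 0.35 (rho = 0.31) with Lrat, -0.11 (rho = -0.36) with Cyp26a1 and -0.03 (rho = -0.19) with Rarb, and its part was not tested either.

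**Figure D3:**
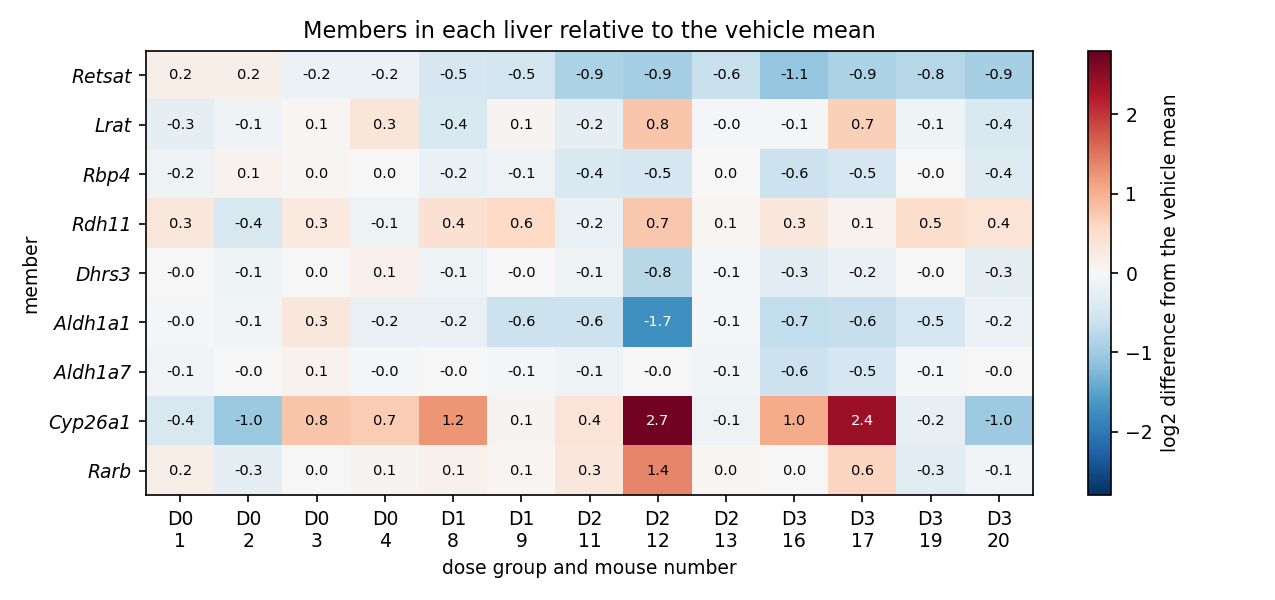
Log2 difference of each of the 9 genes (rows) in each of the 13 livers (columns, by dose group and mouse number) from the mean of the vehicle livers; red is higher and blue lower. The Retsat row is negative in all 9 dosed livers, while the Cyp26a1 row is highest in mice 12 and 17.

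The 36 pairs of the 9 genes were correlated over the 13 livers. The permutations shuffled all 13 livers with no regard to dose group or slide, so their p does not separate a shared change with dose. Of the 28 pairs without Retsat, 8 had a permutation p of r, adjusted over the 36, of no more than 0.05, and 2 had such a p of rho. How many pairs of other genes pass over these livers was not counted, so these numbers are no result about the 9 genes. Cyp26a1 and Rarb gave r = 0.80 (permutation p = 0.00068, adjusted p = 0.0245) and rho = 0.64 (permutation p = 0.0223, adjusted p = 0.134). Within dose groups, as deviations from the group means, r was 0.83. Within the slides r was 0.81 (7 livers) and 0.44 (6 livers). Without mice 12 and 17 it was 0.48, so the relation rests on these livers. Cyp26a1 and Lrat gave r = 0.75 (permutation p = 0.00389, adjusted p = 0.0294) and rho = 0.53 (permutation p = 0.0665, adjusted p = 0.218), with r of 0.75 and 0.91 within the slides and 0.26 without mice 12 and 17. Of these 2 livers, that of mouse 17 carried markers of fat and muscle, and that of mouse 12 did not (0.77 and -0.52). Both had the low hepatocyte markers given above. The part of those markers was not tested. Lrat and Rarb gave r = 0.72 (rho = 0.32), and -0.05 without mice 12 and 17.

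**Figure D4:**
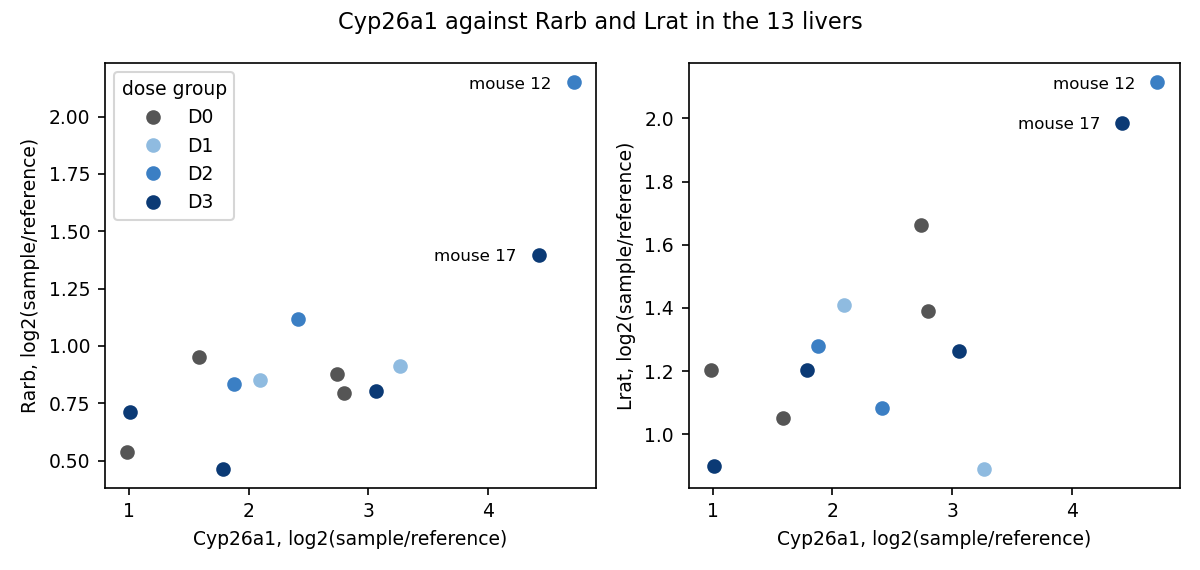
Rarb (left) and Lrat (right) against Cyp26a1 in the 13 livers, all as log2 ratio of sample over reference, 1 point per mouse, coloured by dose group. Mice 12 and 17 lie apart at the upper right, and without them r falls from 0.80 to 0.48 for Rarb and from 0.75 to 0.26 for Lrat.

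Dhrs3 and Rbp4 gave r = 0.68 (permutation p = 0.00348, adjusted p = 0.0294) and rho = 0.81 (permutation p = 0.00149, adjusted p = 0.0268) over the livers. Within the slides r was 0.50 and 0.82, and within dose groups it was 0.58. It was 0.76 without mice 4 and 12, the livers farthest from the median of Dhrs3. Aldh1a1 and Rbp4 gave r = 0.66 (adjusted permutation p = 0.038) and rho = 0.75 (adjusted permutation p = 0.0411), with r of 0.65 without mice 3 and 12 and of 0.68 and 0.27 within the slides. Within dose groups that r was 0.52. The hepatocyte markers gave r = 0.71 with Rbp4, 0.60 with Aldh1a1 and 0.57 with Dhrs3, as a description, and their part in these pairs was not tested. Of the remaining pairs, r was 0.79 for Aldh1a1 and Dhrs3, -0.77 for Aldh1a1 and Rarb, and 0.68 for Aldh1a7 and Rbp4. These fell to 0.30, -0.33 and 0.31 without the 2 livers farthest from the median, so they rest on those livers. Retsat and Rbp4 gave r = 0.75 over the livers and 0.53 within dose groups, given as a description because Retsat was chosen by its liver values. All pairs were read on the same 13 arrays, whose spike-in probes shifted with dose.

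By the fixed rule of likeness, the 5 genes with the highest r to Retsat over the 13 livers, of 14236 ranked, were Fip1l1 (r = 0.932), Ech1 (0.932), Opa1 (0.922), Creb3l3 (0.914) and Apob (0.897). Fip1l1 takes part in polyadenylation of mRNA, Ech1 in fatty acid oxidation, Opa1 in fusion of the mitochondrial inner membrane, Creb3l3 is a hepatocyte transcription factor, and Apob is the protein of very low density lipoproteins. With deviations from the dose group means in place of the values, r was 0.78, 0.66, 0.78, 0.71 and 0.51 in the same order. With the log ratios of the scanner software r was 0.88, 0.92, 0.92, 0.88 and 0.65. The genes then ranked 12, 1, 2, 16 and 509, so which genes are listed depends on the processing. Their D3 changes were -0.26, -0.41, -0.24, -0.40 and -0.66. The genes were picked for following Retsat, which fell with dose in these livers, so their lower values follow from the choice and are a description.

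In lung, Retsat was lower at the high dose but missed the threshold over all probes. The vehicle lungs of mice 1, 2, 3 and 4 read -0.08, -0.07, -0.02 and -0.46. The D1 lungs of mice 7, 8 and 9 read -0.47, -0.11 and -0.13, the D2 lungs of mice 11, 12, 13 and 15 read -0.83, 0.39, -0.27 and -0.61, and the D3 lungs of mice 16, 17, 19 and 20 read -1.15, -0.71, -0.60 and -1.02. All 4 D3 lungs lay below all vehicle lungs, as did those of 2.38% of the 32697 probes tested (another 2.94% lay above), whereas D1 and D2 overlapped the vehicle lungs. The D3 change was -0.71 (SE 0.22, unadjusted p = 0.00563, adjusted p = 0.423 in limma), or 1.63-fold lower, and the linear trend was -0.72 per 100 mg/kg-bw/day (SE 0.20, limma adjusted p = 0.33). Within the 4 lung slides the D3 differences were -1.07, -0.63, -0.56 and -0.58, each from 1 mouse against 1. The spike-in probes moved the other way in lung, with changes of 0.27 to 0.49 at D3. Without the lungs of mice 7 and 12 the D3 change was again -0.71, with a limma adjusted p of 0.134, and over all 17 alternatives the change lay between -1.09 and -0.62 with an adjusted p of 0.134 to 0.86. The mean of the 6 lung epithelium markers was 5.67 to 6.08 in vehicle lungs and 5.64 to 6.29 in D3 lungs. Over the 15 lungs it gave r = -0.72 and rho = -0.65 with Retsat, as a description, and its part in the Retsat change was not tested.

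Of the 8 genes tested in lung, 0 were called at any dose or in the trend. The shares of all lung probes called were 0% at D1, 0.0153% at D2, 0.0336% at D3, and 0.0367% passed in the trend. Retsat alone had an unadjusted p below 0.05 in limma, at D3 (8.02% of all probes) and in the trend (8.48%), and 0 genes had one at D1 (1.76%) or D2 (4.25%). Rbp4 and Aldh1a7 were higher in 3 of 4 D3 lungs than in every vehicle lung, with changes of 0.44 (SE 0.32) and 0.27 (SE 0.20) and a limma adjusted p of 0.798 for both. With 1 array left out they ranged from 0.28 to 0.60 and from 0.145 to 0.345. Over all 17 alternatives they ranged from 0.056 to 0.60 and from -0.11 to 0.345. The lung epithelium markers gave r = 0.82 (rho = 0.96) with Aldh1a7, 0.80 (rho = 0.80) with Aldh1a1 and 0.66 (rho = 0.51) with Rbp4 over the 15 lungs, as a description. They were higher in 3 of 4 D3 lungs (6.16 to 6.29, mice 16, 19 and 20) than in every vehicle lung, and their part in these changes was not tested. Rarb read 1.62, 2.32, 1.46 and 1.95 in the D3 lungs against 1.01 to 1.77 in vehicle lungs, a change of 0.49 (SE 0.27, limma adjusted p = 0.682). Over the alternatives the Rarb change ranged from 0.10 to 0.625. Lrat read 3.43, 3.76, 4.35 and 1.21 in the D3 lungs against 3.41 to 4.70 in vehicle lungs. Its change of -0.59 came from mouse 20 and was 0.075 without that lung. Dhrs3, Rdh11 and Aldh1a1 changed by -0.04, -0.06 and 0.18.

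**Figure D5:**
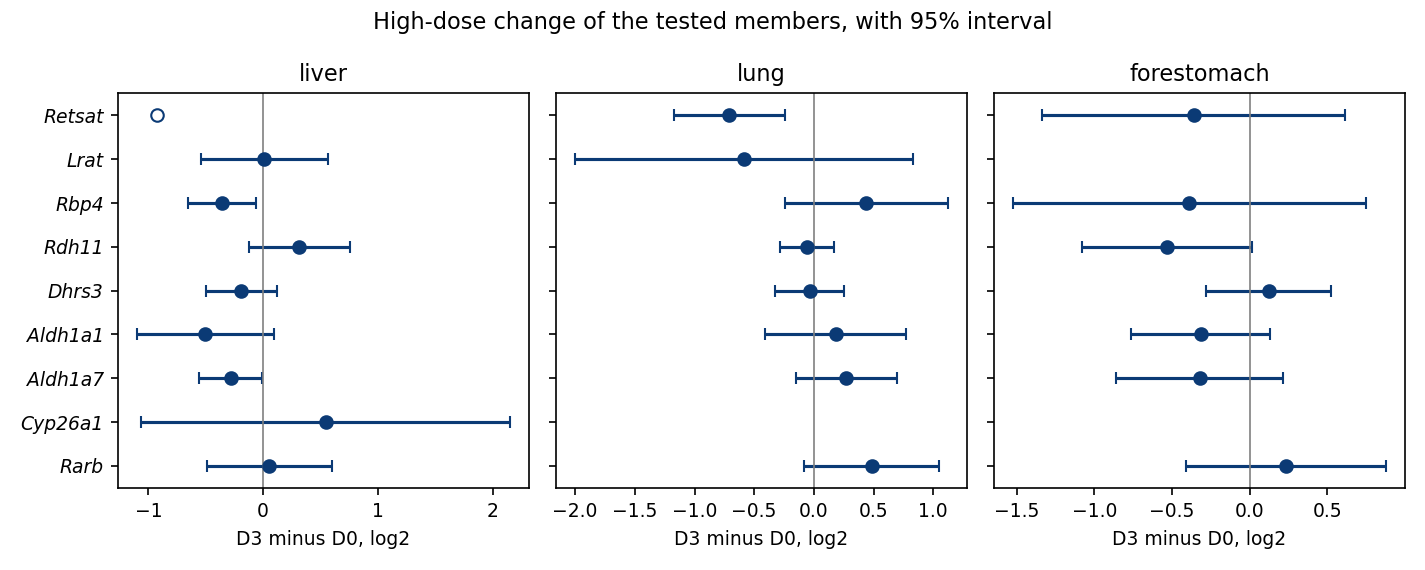
Change from D0 to D3 on the log2 scale (horizontal axes) of the genes tested in each tissue, with points for the estimate and bars for the 95% interval from limma. Retsat in liver, where the gene was chosen, is an open point with no interval. Of the intervals drawn, those of Retsat in lung and of Rbp4 and Aldh1a7 in liver exclude 0.

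In forestomach, Retsat spread too widely to order the doses. The vehicle mice 1, 2, 3 and 4 read 1.11, 1.55, 1.33 and 0.43, the D1 mice 7, 8 and 9 read 2.12, 1.76 and 1.16, the D2 mice 11, 12, 13 and 15 read 0.29, 1.62, 0.81 and 0.82, and the D3 mice 16, 17 and 20 read 0.24, 1.962 and 0.03. Retsat differed with the glandular stomach markers of the arrays. The 5 arrays with low markers read 0.03 to 1.1 and the 9 arrays with high markers read 0.81 to 2.12, so that the ranges overlapped at their edges. As a description over the 14 arrays, which fall into these separate clusters, Retsat gave r = 0.75 (rho = 0.65) with the glandular stomach markers, 0.86 (rho = 0.82) with pancreatic acinar markers and -0.76 (rho = -0.78) with hepatic stellate cell markers. In forestomach, 1 to 4 of the 7 pancreatic and 4 to 6 of the 9 stellate markers were well above background. These last 2 lists thus do not show that the cells they are named for were present. The part of each in the Retsat values was not tested. The low arrays were those of D0 mice 1 and 4, D2 mouse 11 and D3 mice 16 and 20, so their number was unequal between groups. The D3 change of Retsat was -0.36 (SE 0.45, limma adjusted p = 1), and with the marker score of each array as a covariate it was -0.24 (SE 0.31, limma adjusted p = 0.991). Leaving out 1 array at a time moved it from -0.97 to -0.006. Rbp4 read -0.59 to 0.65 in the 5 low arrays and -0.20 to 1.699 in the 9 others, ranges that overlapped.

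None of the 7 genes tested in forestomach was called, and the share of all probes called was 0% at D1, 0% at D2, 0% at D3 and 0% for the trend. Without adjustment, limma gave a p below 0.05 for 2 of the 7 at D1 (Aldh1a7 and Rdh11; 12.1% of all probes), 1 at D2 (Rdh11; 7.59%), 0 at D3 (2.2%) and 0 in the trend (2.81%). Rdh11 read 0.80, 0.07, 0.24 and -0.21 in the vehicle mice, -0.43, -0.48 and -0.36 in D1 mice, and -0.33, -0.90, -0.45 and -0.30 in D2 mice. All D1 and D2 mice lay below all vehicle mice, as did those of 9.21% of all probes at D1 and 2.16% at D2, with changes of -0.65 (SE 0.25, limma adjusted p = 0.354) and -0.72 (SE 0.24, limma adjusted p = 0.535), and the D3 mice overlapped them. As a description over the 14 arrays, squamous epithelium markers gave r = 0.63 (rho = 0.71) with Rdh11 and 0.69 (rho = 0.71) with Aldh1a7. Their mean was 3.35 to 3.98 in vehicle, 2.91 to 3.41 in D1, 2.71 to 3.61 in D2 and 3.36 to 3.41 in D3 forestomachs. All 3 D1 arrays had high glandular stomach markers, against 2 of 4 vehicle arrays. A fit with the glandular score as a covariate was among 15 alternatives, and 0 of the genes were called at D1 in any of them. Over these alternatives the D1 change lay between -0.80 and -0.41 for Rdh11 and between -0.90 and -0.37 for Aldh1a7. The part of the squamous markers was not tested. Aldh1a7 read 5.37, 5.50, 5.50 and 4.98 in vehicle mice and 4.62, 4.59 and 4.47 in D1 mice, a change of -0.78 (SE 0.25, limma adjusted p = 0.287). Its D2 and D3 values overlapped the vehicle values. At D3 none of the 7 genes lay wholly above or below the vehicle mice, against 1.11% of the 25305 probes tested that lay wholly below and 1.79% wholly above.

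The difference of the D3 effect between tissues was tested in 1 fit over the 42 arrays, with the same genes left out. In that fit 0 of 7 genes differed between lung and liver (0.0266% of all 37646 probes were called), 0 of 7 between lung and forestomach (0.0106%) and 0 of 6 between liver and forestomach (0.00531%). Without adjustment, limma gave a p below 0.05 for 0, 1 and 1 of these genes, beside 4.83%, 4.14% and 3.26% of all probes. The Retsat effects in lung and forestomach differed by -0.35 (SE 0.44, 95% interval -1.24 to 0.54, limma adjusted p = 1), an interval too wide to call them alike. Rdh11 had the smallest unadjusted p, with a D3 effect 0.85 higher in liver than in forestomach (SE 0.29, unadjusted p = 0.00547, adjusted p = 1 in limma). The other was Aldh1a7, with a D3 effect 0.60 higher in lung than in forestomach (unadjusted p = 0.0487, adjusted p = 1 in limma).

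The wider retinoid pathway was followed with 55 other genes, of which 41 were tested in lung, 45 in liver and 43 in forestomach. None was called by limma at any dose or in the trend. Centred on the spike-in probes, 34 of 45 in liver were called at D2 and 19 at D3, all higher, beside the 79.8% and 67.5% of all probes given above. On the scale centred on all probes, at D1 and D2 an unadjusted p below 0.05 was found for 1 and 2 of them in lung, 2 and 11 in liver, and 7 and 6 in forestomach. All probes had such a p in 1.76% and 4.25% (lung), 1.54% and 10.7% (liver), and 12.1% and 7.59% (forestomach). At D3 in liver 14 of 45 were higher and 31 lower, with a median change of -0.09 beside -0.005 over all probes, and 6 of 45 had an unadjusted p below 0.05 in limma (7.8% of all probes). Centred on the spike-in probes, 44 of the 45 were higher at D3, with a median of 0.58. In lung at D3 the median was -0.002 beside 0.004 over all probes, and 4 of 41 had an unadjusted p below 0.05 (8.02% of all probes). In forestomach at D3 the median was -0.06 beside 0.004, and 1 of 43 had such a p (2.2% of all probes).

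In each tissue, the pathway genes with the largest D3 change were named by rule. In liver, Lpl, the lipoprotein lipase that also releases retinol from lipoprotein esters, changed by 1.03 (SE 0.44, limma adjusted p = 0.6) and was highest in mouse 12 at 2.57. Centred on the spike-in probes, its change was 1.699 (limma adjusted p = 0.00622), with all genes moved by 0.67. The D3 livers of mice 17 and 20, which carried fat markers, read 0.35 and 0.97 for Lpl against 0.12 and 0.41 in mice 16 and 19. Without mice 17 and 20 the change was 0.83, and the part of these markers was not tested. In lung, Aldh1a2, a retinal dehydrogenase, read 3.53, 2.26, 3.29 and 2.49 in vehicle mice and 2.02, 1.07, 2.81 and 0.96 in D3 mice, a change of -1.18 (SE 0.37, limma adjusted p = 0.423). Rarres2, a gene responsive to retinoic acid, changed by -0.48 in lung (SE 0.23, limma adjusted p = 0.634), or by -0.70 to -0.28 with 1 array left out. In forestomach, Ttr, the blood partner of Rbp4, changed by -1.06 (SE 1.77, limma adjusted p = 1) and was between -0.27 and 0.09 in the 5 arrays with low glandular markers. Rbp7, a cellular retinol carrier, changed by -0.90 there (SE 0.67, limma adjusted p = 1). With 1 array left out, Ttr ranged from -2.82 to -0.007 and Rbp7 from -1.32 to -0.14.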

How the data were processed

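Total RNA of each tissue was labelled with Cy5 and a universal mouse reference with Cy3, with no dye swap. The authors deposited 1 scanner file per array (Agilent Feature Extraction 10.7.3.1 for lung and forestomach, 11.0.1.1 for liver, per the file headers) with the median intensity of both channels and a log10 ratio, and a table of log2 ratios made by the authors with LOWESS and no background subtraction. The 13 liver columns of that table did not follow the scanner values of the same probe IDs and were not used. Arrays give no read depth, and their number limits the precision.

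Here the channel medians entered, following the methods, with no background subtracted and with loess within each array (limma 3.58.1, R 4.3.3; package data.table, version 1.17.8). Control spots and outlier flags were left out, and spots of the same probe were averaged, giving 55681 probes. Of 33064 probes with a RefSeq-like accession, 26413 received a symbol, and the brightest probe of a gene was used. A probe was tested in a tissue where it was well above background on at least 3 (lung), 2 (liver) or 3 (forestomach) arrays. limma's lmFit and eBayes compared each dose with D0 and tested the linear trend, with Benjamini-Hochberg adjustment over all probes of the tissue. MAANOVA, which the authors used, was not run. Calls needed an adjusted p of at most 0.05 and 1.5-fold, or for trends and effects between tissues the adjusted p alone. Bounds ("at least") used the red channel after loess and Aquantile and are open to dye bias. Correlations used 100000 permutations over all livers, with no regard to dose group or slide. The scripts were tested on simulated data.

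The members, the gene lists and the tests were chosen with earlier results of these data known. Retsat enters no count of calls or of correlated pairs that involves liver. Named are all 9 members, pathway genes called at any dose, the 2 pathway genes with the largest D3 change per tissue, and the 5 genes most like Retsat. A pathway gene that the rule names in liver is not reported here. By the sample labels, the same mouse number is taken to mark the same animal in each tissue. Deviations from the group means correlated at a median of 0.07 (lung and liver), 0.15 (lung and forestomach) and 0.03 (liver and forestomach) per mouse. Different mice were not compared in this way, so these values do not show that the animals are the same. Each array is a separate animal within a tissue.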

Additional observations from a re-analysis of the deposited data

Results flagged for a closer look

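Of 56 groups of 4 mice that were examined for 1 mouse standing apart from its group, 3 held such a value, and chance gives about 1 in 20. Retsat in lung was lower in D0 mouse 4 (-0.46) than in the other vehicle lungs (-0.08 to -0.02). Without that lung the D3 change of Retsat in lung was -0.81, against -0.71 with it. Lrat in lung was higher in D0 mouse 3 (4.70) than in the other vehicle lungs (3.41 to 3.56). Aldh1a1 in forestomach was lower in D0 mouse 4 (3.83) than in the other vehicle mice (4.30 to 4.36). That array had low glandular stomach markers, as did that of D0 mouse 1, which read 4.36, and it had white fat markers at 3.11.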

How the results depend on the processing

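Retsat, chosen by its liver values, is left out of the counts that involve liver. None of the other 8 genes was called in liver at any dose or in the trend as reported, and none without any 1 array (0 in each). When centred on the spike-in mean, 5 were called at D2, 3 at D3 and 3 in the trend, beside 79.8%, 67.5% and 79.8% of all probes. The cause was not tested. Spike centring and the settings that leave out named mice together were chosen after seeing the data.

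Spike centring reversed the D3 changes in liver of Rbp4 (0.31), Aldh1a1 (0.165), Aldh1a7 (0.39) and Dhrs3 (0.48), and in lung of Aldh1a1 (-0.20) and Aldh1a7 (-0.11). It also moved the median of all genes at D3 by 0.67 in liver and -0.38 in lung, and Lpl was then called in liver (1.699, limma adjusted p = 0.00622). Small D3 changes turned sign in liver for Lrat (-0.54 with the scanner software, -0.008 with normexp, -0.093 without mice 17 and 20) and Rarb (-0.001 with the scanner software, -0.16 without mice 17 and 20). The difference of the Lrat effect between lung and liver was 0.41 with the scanner software. Leaving out 1 array at a time, D3 changes ranged in lung from -0.975 to 0.075 (Lrat) and -0.13 to 0.067 (Dhrs3). In liver they ranged from -0.205 to 0.16 (Lrat), -0.073 to 1.065 (Cyp26a1) and -0.13 to 0.18 (Rarb). In forestomach they ranged from -0.97 to -0.006 (Retsat), -0.68 to 0.066 (Rbp4), -0.007 to 0.24 (Dhrs3) and -0.056 to 0.525 (Rarb). The Lrat effect in lung against liver ranged from -0.99 to 0.064.

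With the mouse as a replicate block (consensus correlation 0.059), 5 of 7 genes were called between lung and liver, 6 of 7 between lung and forestomach, and 5 of 6 between liver and forestomach in vehicle mice, as without the block, and it changed no other call. The authors' table was not run for liver. The number of arrays, down to 2 in the D1 liver group, limits the precision.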
